A study of Mus musculus with 8 samples.

Results

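Contacts of 5 viewpoints were compared between neural stem cells and embryonic stem cells of the mouse, in 4 of the 8 libraries of the series. The neural stem cell group (NSC) held both libraries named Nst, from neural stem cells of the E14.5 (embryonic day) cortex, and the embryonic stem cell group (ES) held both libraries named Escells, kept on gelatin with serum and with leukemia inhibitory factor (LIF). A growth protocol was given for NSC replicate 1 alone: StemPro medium with bFGF at 20 ng/ml, EGF at 20 ng/ml, Glutamax at 2 mM and StemPro neural supplement at 2%. The other 4 libraries were cortical neurons differentiated from such stem cells and the neuroblastoma line N2a (2 libraries each). Their values are set beside those of NSC and ES and were not tested for a difference. All 8 libraries were fitted together, so the spread of these 4 also enters each p. The labels give no strain, sex, passage or number of animals, and do not say whether the 2 libraries of a group were separate cultures. Each p below therefore measures the spread between libraries within the cell types, which may be technical. No treatment or genetic change is named for either group. The assay reads contacts of DNA and no RNA, so the labelled cell types were not checked against marker genes.

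In a chromosome conformation assay, crosslinked chromatin is cut and ligated, and the fragments joined to a chosen viewpoint are sequenced, so that a read counts a contact between the viewpoint and a fragment elsewhere. Contacts on the same chromosome (cis) fall off steeply with distance, and departures from that decay mark loops, domains and their borders. The viewpoints lie at genes of neural development. Pax6 encodes a paired-box transcription factor needed for the eye and for the radial glia of the cortex, and it has several promoters, of which P0 and P1 were viewpoints. Paupar is a long noncoding RNA transcribed next to Pax6. Sox2 encodes a transcription factor that maintains pluripotency in ES cells and stemness in neural progenitors, under different enhancers in either cell type. Pou3f3 (Brn1) encodes a POU-domain factor of cortical progenitors and upper-layer neurons.

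On the mm10 build, the viewpoints were located at chr2:105660480-105662320 (Paupar), chr2:105667489-105669388 (Pax6 P0), chr2:105674040-105676188 (Pax6 P1), chr3:34647002-34650633 (Sox2) and chr1:42695817-42699251 (Pou3f3). Upstream means lower coordinates, which is also 5′ of Pax6, Sox2 and Pou3f3, all on the plus strand. The promoters of these genes are shown because the viewpoints sit on them or beside them, and those of the noncoding RNAs Gm38509 and Gm29260 because the stretches around them had the smallest p of all gene neighbourhoods at the Sox2 and Pou3f3 viewpoints, as given below. Each is the RefSeq window from 250 bases before to 50 bases after the annotated start on GRCm38.p6, printed 5′ to 3′ on the gene's plus strand, with CG dinucleotides in capitals. The Pax6 window spans chr2:105668646-105668945 and lies inside the P0 viewpoint, the Sox2 window spans chr3:34649745-34650044 and lies inside its viewpoint, and the Pou3f3 window spans chr1:42695518-42695817 and meets its viewpoint at 1 base. The Gm38509 window spans chr3:34771825-34772124 and the Gm29260 window chr1:41742772-41743071.
Pax6: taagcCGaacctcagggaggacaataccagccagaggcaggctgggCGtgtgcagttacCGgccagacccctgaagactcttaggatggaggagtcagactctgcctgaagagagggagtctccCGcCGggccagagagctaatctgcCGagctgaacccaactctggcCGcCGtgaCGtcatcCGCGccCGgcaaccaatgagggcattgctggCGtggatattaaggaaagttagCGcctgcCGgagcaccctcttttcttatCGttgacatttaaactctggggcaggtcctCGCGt
Sox2: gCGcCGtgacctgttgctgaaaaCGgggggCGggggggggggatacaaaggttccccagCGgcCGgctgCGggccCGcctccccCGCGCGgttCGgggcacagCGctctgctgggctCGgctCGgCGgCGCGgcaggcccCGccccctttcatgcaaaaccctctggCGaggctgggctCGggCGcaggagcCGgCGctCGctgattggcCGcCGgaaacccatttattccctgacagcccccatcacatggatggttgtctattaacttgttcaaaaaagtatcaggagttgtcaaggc
Pou3f3: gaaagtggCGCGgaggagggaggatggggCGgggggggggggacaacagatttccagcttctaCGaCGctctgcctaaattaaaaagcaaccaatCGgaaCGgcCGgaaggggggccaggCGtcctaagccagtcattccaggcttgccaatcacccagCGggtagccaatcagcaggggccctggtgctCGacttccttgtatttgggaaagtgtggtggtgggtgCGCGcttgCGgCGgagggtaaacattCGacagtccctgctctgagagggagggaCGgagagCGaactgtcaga
Gm38509: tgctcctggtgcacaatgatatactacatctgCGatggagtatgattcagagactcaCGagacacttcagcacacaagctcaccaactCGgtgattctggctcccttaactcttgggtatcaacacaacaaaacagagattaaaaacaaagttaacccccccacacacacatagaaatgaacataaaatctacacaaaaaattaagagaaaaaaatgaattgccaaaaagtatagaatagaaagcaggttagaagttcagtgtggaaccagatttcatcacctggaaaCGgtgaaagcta
Gm29260: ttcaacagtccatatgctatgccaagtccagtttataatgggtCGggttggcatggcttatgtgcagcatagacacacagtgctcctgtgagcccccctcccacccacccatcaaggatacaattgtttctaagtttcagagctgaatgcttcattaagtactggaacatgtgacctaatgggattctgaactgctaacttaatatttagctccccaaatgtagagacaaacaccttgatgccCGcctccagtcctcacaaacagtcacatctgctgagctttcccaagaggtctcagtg
The Pax6, Sox2 and Pou3f3 windows held 18, 27 and 18 CG, and those of Gm38509 and Gm29260 held 4 and 2. Over all 32851 windows of the table, 94.6% held at least 1 CG, with a median of 7. None of the printed windows held GATC, which was searched on both strands and stands in 48.0% of all windows. GATC lay at 618 of 618 ends of listed fragments that fell inside promoter windows of the 3 viewpoint chromosomes.

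Each library had 1 file per viewpoint. Cis reads farther than 5 kb from the viewpoint numbered 22028 to 75244 per file in ES and 9634 to 49134 in NSC, and they were 52.4% to 70.9% and 53.6% to 70.8% of the listed reads. NSC replicate 1 was the shallowest library at every viewpoint, with 9634 to 13190 such reads. All shares below are percentages of these reads in that library and viewpoint. At the classes that passed the test, counting error alone gave a 95% Wilson interval of at most 0.776 percentage points on either side in NSC replicate 1 and at most 0.364 in the other 3 libraries. The reads carry no molecular identifiers and may repeat molecules, and a read may have been counted in several fragments. The intervals treat the listed reads as independent and cover counting error only, so they are too narrow where this happened.

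Reads were summed in distance classes from 5 kb to the chromosome ends on each side. Of 128 classes over the 5 viewpoints, 15 passed edgeR's quasi-likelihood test at a Benjamini-Hochberg adjusted p of 0.05, which is 11.7% of those tested, with 6 higher (4.69%) and 9 lower (7.03%) in NSC. The calls lay at 7 of 25 classes for Pou3f3 (28.0%), 5 of 25 for Sox2 (20.0%) and 3 of 26 for Pax6 P1 (11.5%), and at 0 of 26 each for Paupar (0.00%) and Pax6 P0 (0.00%). At an unadjusted p under 0.05 the last 2 viewpoints had 8 and 6 classes, and DESeq2 called 2 and 3. The share of higher against lower calls depends on the scaling: there were 10 higher and 5 lower with TMM factors, 14 and 5 under the size factors of DESeq2, and 1 and 7 when all listed reads were the library size. The median log2 difference over all classes was -0.17 in the main scaling and -0.04 with DESeq2 size factors. These factors were estimated for each viewpoint apart, so the shift differs between viewpoints and can exceed the gap between these medians. Over all alternatives, the log2 difference at Pou3f3 ranged from -0.91 to -0.41 at 2 to 5 Mb upstream and from -1.33 to -0.62 at 200 to 500 kb downstream.

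**Figure D1:**
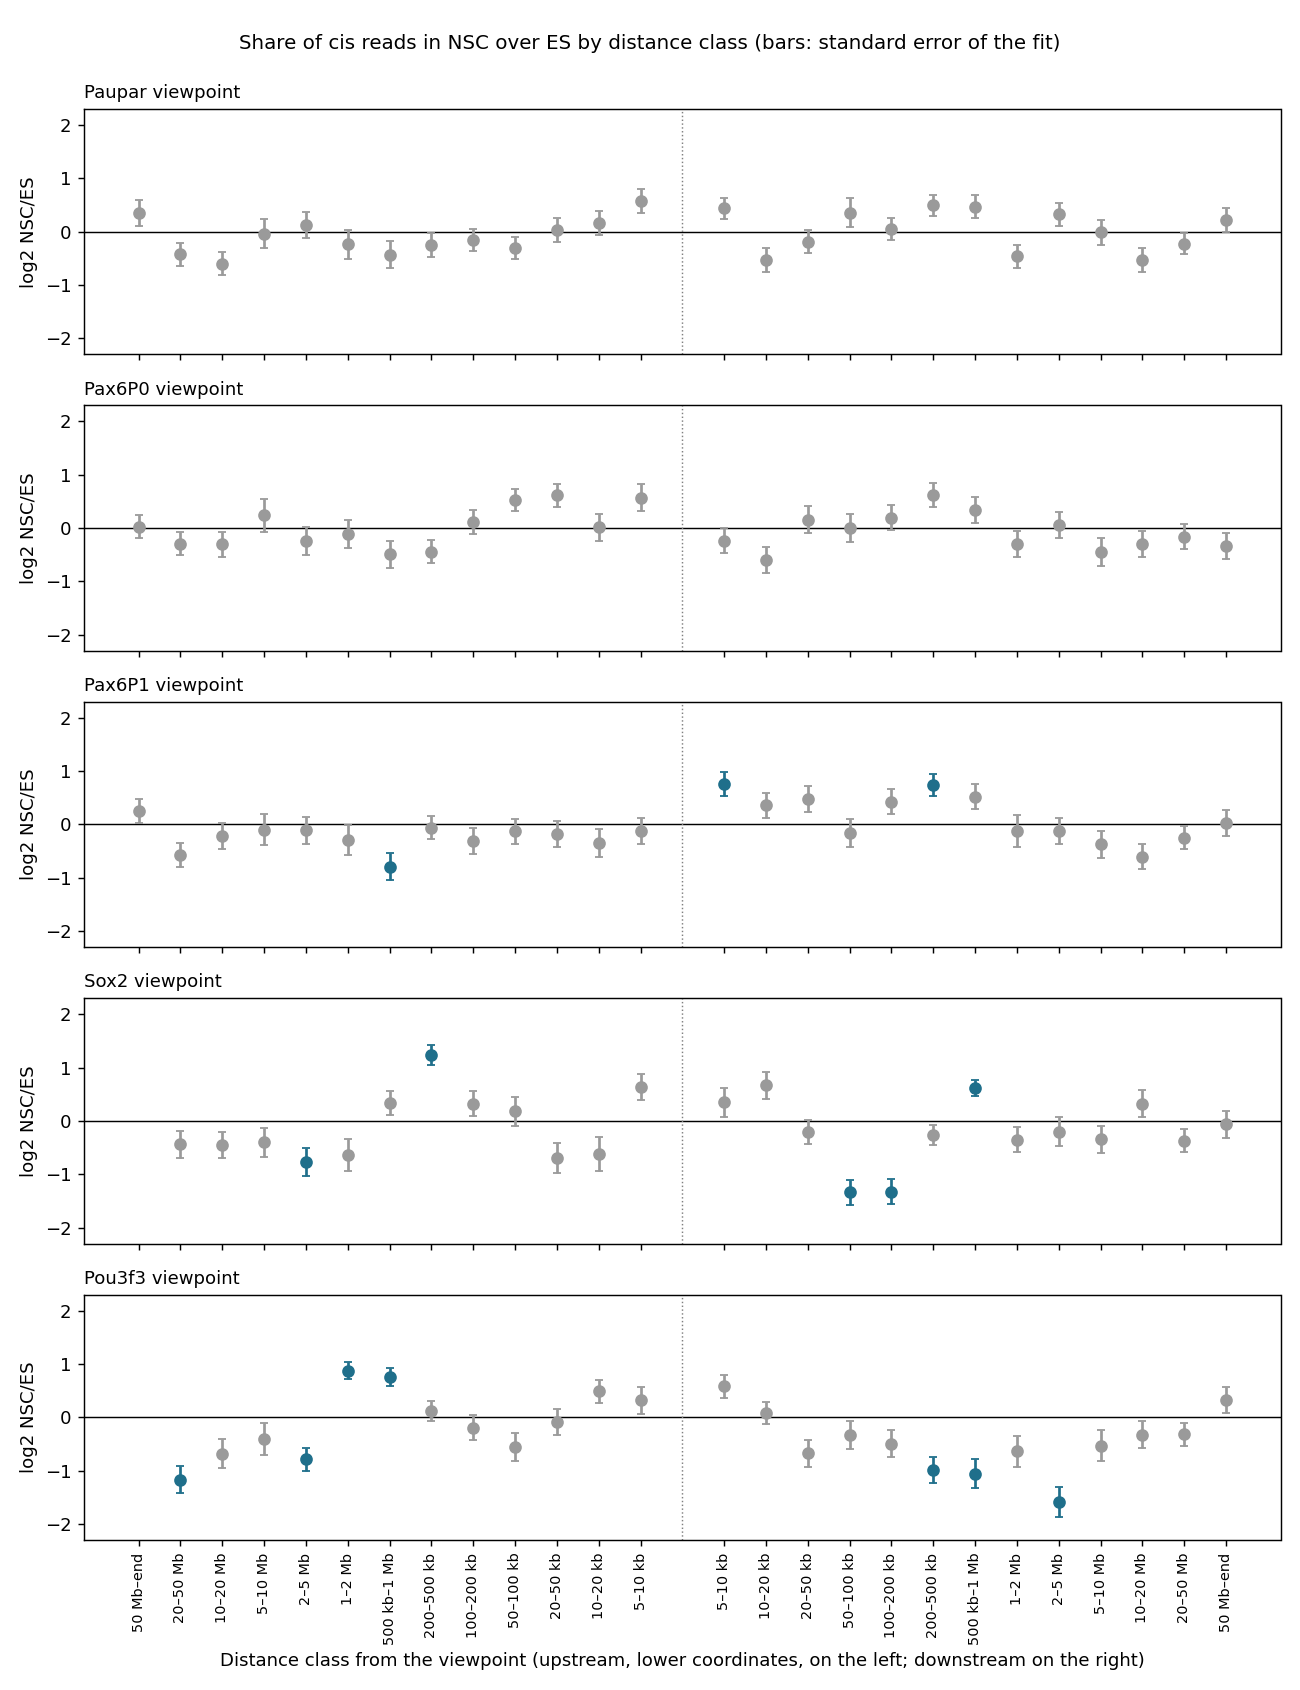
Difference between NSC and ES in each distance class, as log2 of the ratio of shares of cis reads, for 5 viewpoints; points are fitted values, bars are standard errors, and blue points passed the test at an adjusted p of 0.05. The Sox2 and Pou3f3 panels hold 12 of the 15 blue points, and the Paupar and Pax6P0 panels hold none.

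At the Sox2 viewpoint, NSC had a smaller share of reads than ES over the stretch from 50 to 200 kb downstream, and a larger one from 200 to 500 kb upstream and from 500 kb to 1 Mb downstream. The class 100 to 200 kb downstream (chr3:34748817-34848816, which holds 2 lncRNA genes and no protein-coding gene) took 10.5% and 9.97% of reads in the ES libraries and 3.54% and 4.57% in the NSC libraries. The groups were far apart there, and the difference was -1.33 on the log2 scale (SE 0.23, adjusted p = 5.8e-05, edgeR). The class 50 to 100 kb downstream held 5.05% and 5.65% in ES and 1.81% and 2.37% in NSC, again without overlap and with a log2 difference of -1.34 (SE 0.24, adjusted p = 5.8e-05, edgeR). Both classes together held 15.6% ± 0.0743 (SD, n = 2) of reads in ES and 6.15% ± 1.13 (SD, n = 2) in NSC, and 5.94% in neurons and 6.38% in N2a as means of 2 libraries. All 6 libraries that are not ES thus lay between 5.35% and 6.94%.

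Upstream of Sox2, the class from 200 to 500 kb (chr3:34148818-34448817) rose in NSC. It held 5.57% and 5.69% of reads in ES against 12.7% and 13.9% in NSC, a ratio of means of 2.36. The difference was 1.24 on the log2 scale (SE 0.19, adjusted p = 1.5e-05, edgeR), the smallest p of all 128 classes. Of the 6 annotated genes in this stretch 5 are lncRNAs and none is protein-coding. The neuron libraries held 13.5% and 14.9% there, and the N2a libraries 4.88% and 4.58%. The class from 500 kb to 1 Mb downstream (chr3:35148817-35648816), also without a protein-coding gene, held 12.0% and 13.2% in ES and 18.5% and 20.0% in NSC. The log2 difference was 0.61 (SE 0.16, adjusted p = 0.00458, edgeR). N2a was lower than both groups there, at 7.21% and 7.44%. The class 2 to 5 Mb upstream, which holds 22 protein-coding genes including Pik3ca and Mecom, went from 2.71% and 2.43% in ES to 1.53% and 1.47% in NSC (log2 difference -0.78, SE 0.26, adjusted p = 0.0432, edgeR).

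The calls at 200 to 500 kb upstream, 50 to 100 kb downstream and 100 to 200 kb downstream passed under all 19 alternatives, with adjusted p of at most 0.0156, 0.0248 and 0.0156. The call at 500 kb to 1 Mb downstream was lost when ES replicate 1 (adjusted p = 0.217), ES replicate 2 (0.0806) or NSC replicate 2 (0.121) was left out and with all listed reads as library size (0.229), and the one at 2 to 5 Mb upstream under 11 alternatives, among them the loss of any ES, NSC or neuron library, with adjusted p between 0.0507 and 0.291.

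In 10 kb windows, 10 of 958 passed the test over all viewpoints, which is 1.04%, with 8 higher (0.835%) and 2 lower in NSC. At Sox2 5 of 194 passed (2.58%), 3 of them higher (1.55%) and 2 lower (1.03%). The windows from 105 to 115 kb (chr3:34753817-34763816) and 115 to 125 kb downstream (chr3:34763817-34773816, at the start of Gm38509) were lower in NSC. The first held 2.31% and 2.72% of reads in ES and 0.426% and 0.510% in NSC, 5.38 times lower, and the second 1.74% and 1.36% against 0.301% and 0.249%, 5.64 times lower. The log2 differences were -2.42 and -2.51 (SE 0.43 each, adjusted p = 0.00731 each, edgeR). A downstream enhancer region known to drive Sox2 in ES cells lies in this part of the flank. The neuron and N2a libraries ranged from 0.181% to 0.782% in these windows, all below the ES libraries.

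Higher windows at Sox2 lay at 355 to 365 kb upstream (chr3:34283818-34293817), 375 to 385 kb upstream (chr3:34263818-34273817, overlapping the lncRNA gene Gm52623) and 825 to 835 kb downstream (chr3:35473817-35483816, with no annotated gene). The shares were 0.205% and 0.144% in ES and 1.09% and 0.761% in NSC at the first, and 0.242% and 0.157% against 0.945% and 0.834% at the second. At the third they were 0.468% and 1.25% against 3.57% and 2.53%, the highest NSC share of these 10 windows. The log2 differences were 2.39 (SE 0.50, adjusted p = 0.0169), 2.14 (SE 0.50, adjusted p = 0.0416) and 1.83 (SE 0.42, adjusted p = 0.0339) by edgeR. None of the 10 windows passed without ES replicate 1 or without NSC replicate 1, where 53 and 79 windows had an unadjusted p under 0.05, and DESeq2 called 36. Counting the fewest reads per run of adjacent fragments left 1 call, and 79 windows at an unadjusted p under 0.05.

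**Figure D2:**
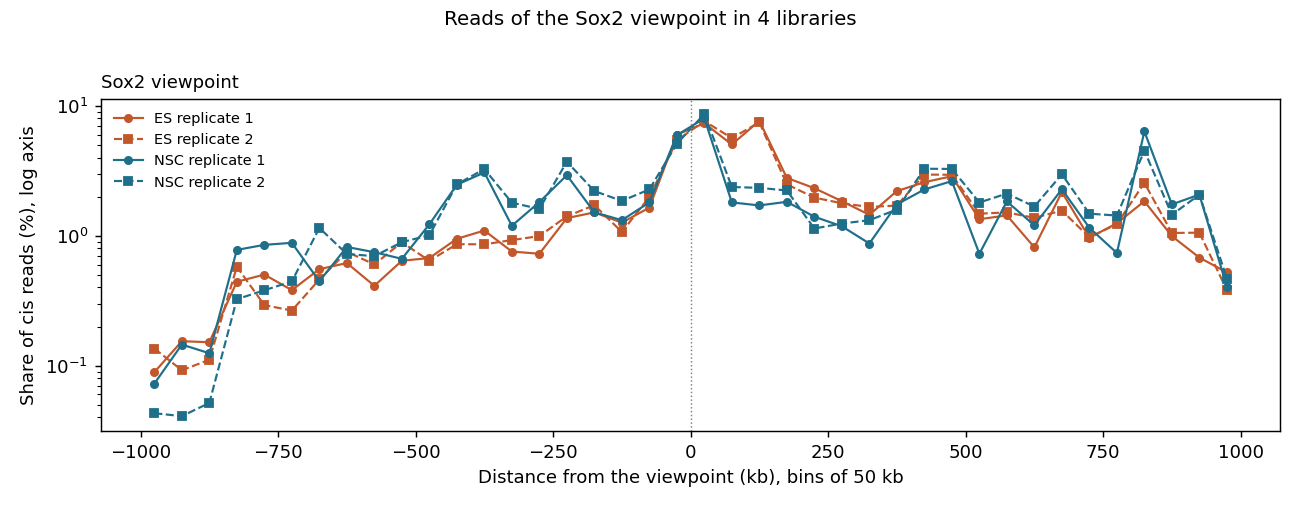
Share of cis reads (percent, log axis) of the Sox2 viewpoint in bins of 50 kb from 1 Mb upstream to 1 Mb downstream, with 1 line for each of the 2 ES and 2 NSC libraries. From 50 to 350 kb downstream both NSC libraries lie below both ES libraries in all 6 bins, and from 200 to 500 kb upstream they lie above in all 6 bins. The groups overlap in 10 of 20 bins upstream and 7 of 20 downstream.

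In the profile of 50 kb bins, both NSC libraries lay below both ES libraries in each of the 6 bins from 50 to 350 kb downstream, a description of the shares with no test. Bins without overlap were common: the groups overlapped in 10 of 20 bins upstream and 7 of 20 downstream. The gap was widest from 100 to 150 kb, at 7.67% and 7.48% in ES against 1.71% and 2.34% in NSC. From 350 to 550 kb downstream the groups overlapped, with 2.58% and 2.96% in ES and 2.27% and 3.28% in NSC from 400 to 450 kb. The bin from 800 to 850 kb downstream stood out from its neighbours in NSC, with 6.36% and 4.52% against 1.85% and 2.55% in ES. Upstream, the bin from 350 to 400 kb held 1.10% and 0.859% in ES and 3.07% and 3.26% in NSC.

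Gene neighbourhoods, each a gene body with 50 kb on either side, were tested over all 5 viewpoints, and 6 of 8722 passed, which is 0.0688%. All 6 are lncRNA genes, 4 of them at Sox2. The neighbourhood of Gm38509 (gene at chr3:34772075-34782346) was the only one that was lower in NSC: it held 12.7% and 12.6% of reads in ES and 4.13% and 4.70% in NSC, a log2 difference of -1.52 (SE 0.20, adjusted p = 8.43e-11, edgeR). Those of Gm52623 (2.14% and 1.86% against 5.44% and 6.33%), Gm38505 (2.63% and 2.84% against 6.16% and 6.75%) and Gm34599 (2.59% and 2.89% against 4.73% and 5.94%), all upstream, were higher. Their log2 differences were 1.56 (SE 0.24, adjusted p = 1.56e-07), 1.24 (SE 0.22, adjusted p = 3.05e-05) and 0.96 (SE 0.23, adjusted p = 0.0471) by edgeR. Neighbourhoods of adjacent genes share reads, and a call says that reads lay near the gene, not on it. With TMM factors 0 of the 8722 passed, although 411 had an unadjusted p under 0.05. DESeq2's test called 28. The calls at Gm38505 and Gm34599 were also lost without ES replicate 1 (adjusted p = 0.206 and 1) or ES replicate 2 (0.0785 and 1), and that at Gm34599 without NSC replicate 2 (0.82). With all listed reads as library size, or with only the NSC and ES libraries fitted, Gm38509 was the 1 neighbourhood that passed, and Gm52623 had an adjusted p of 0.0547 and 0.0573 by edgeR.

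The list of 18 Sox2 neighbours had 16 genes on the chromosome, all tested, and 0 called by edgeR, with 0 at an unadjusted p under 0.05. DESeq2 called 0 of the 15 for which it gave an adjusted p. The median log2 difference of the 16 genes was 0.04, against -0.56 over all 1321 genes tested at this viewpoint.

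At the Pou3f3 viewpoint, NSC had a larger share of reads than ES over a stretch of the upstream side from 400 kb to 2 Mb, and a smaller one from 2 to 5 Mb upstream, from 20 Mb upstream to the chromosome start, and in 3 downstream classes between 200 kb and 5 Mb. The class 500 kb to 1 Mb upstream (chr1:41697535-42197534, with 3 annotated genes, none protein-coding) held 8.08% and 9.05% of reads in ES and 14.6% and 14.3% in NSC. The log2 difference was 0.76 (SE 0.16, adjusted p = 0.000676, edgeR). The class 1 to 2 Mb upstream (chr1:40697535-41697534), which overlaps the protein-coding genes Slc9a2, Mfsd9 and Tmem182 at its outer end (middles 1.87 to 1.97 Mb away), rose from 7.89% and 8.71% to 17% and 13.4% (log2 difference 0.87, SE 0.16, adjusted p = 5.8e-05, edgeR). Together these classes held 16.9% ± 1.27 (SD, n = 2) of reads in ES and 29.6% ± 2.82 (SD, n = 2) in NSC. The neuron and N2a means were 31.2% and 32.3%, so ES lay apart from the other 3 cell types there.

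The adjoining class 2 to 5 Mb upstream, with 33 protein-coding genes, went the other way, from 5.99% and 5.82% in ES to 3.74% and 3.14% in NSC (log2 difference -0.79, SE 0.22, adjusted p = 0.00935, edgeR). The reads from 20 Mb upstream to the chromosome start fell from 4.59% and 4.66% to 2.45% and 1.68% (log2 difference -1.17, SE 0.25, adjusted p = 0.000676, edgeR). Downstream, 3 of 13 classes passed the test as lower in NSC and none passed as higher. The groups overlapped at 10 to 20 kb and from 50 Mb to the chromosome end (5.76% and 5.49% in ES, 8.95% and 5.23% in NSC). The class 200 to 500 kb, which overlaps Mrps9, Gpr45, Tgfbrap1 and Fhl2, had 5.08% and 6.03% in ES and 3.41% and 2.21% in NSC (log2 difference -0.99, SE 0.24, adjusted p = 0.00362, edgeR). The class 500 kb to 1 Mb, which reaches from Fhl2 to Nck2, had 2.11% and 2.17% against 0.903% and 1.14% (log2 difference -1.06, SE 0.27, adjusted p = 0.00458, edgeR). The class 2 to 5 Mb, with Col3a1, Col5a2 and 6 other protein-coding genes, had 1.90% and 2.22% against 0.744% and 0.635%. That ratio of 2.99 was the largest of the 15 called classes (log2 difference -1.59, SE 0.29, adjusted p = 5.8e-05, edgeR).

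The call at 2 to 5 Mb downstream passed under all 19 alternatives, with an adjusted p of at most 0.0125, and that at 1 to 2 Mb upstream was lost with all listed reads as library size alone (adjusted p = 0.129). Leaving out a library ended the call at 500 kb to 1 Mb upstream (ES replicate 1, 0.0551), 2 to 5 Mb upstream (ES replicate 1, 0.169; ES replicate 2, 0.111; NSC replicate 2, 0.133), 20 Mb upstream and beyond (NSC replicate 2, 0.0641), 200 to 500 kb downstream (ES replicate 2, 0.105; NSC replicate 2, 0.135) and 500 kb to 1 Mb downstream (ES replicate 1, 0.0580; ES replicate 2, 0.0806; NSC replicate 1, 0.0532). With TMM factors the calls at 2 to 5 Mb upstream (0.152), 200 to 500 kb downstream (0.114) and 500 kb to 1 Mb downstream (0.0537) were lost, with DESeq2 size factors the same 3 (0.205, 0.144 and 0.0981), and with all listed reads as library size those at 500 kb to 1 Mb upstream (0.271) and 200 to 500 kb downstream (0.111).

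**Figure D3:**
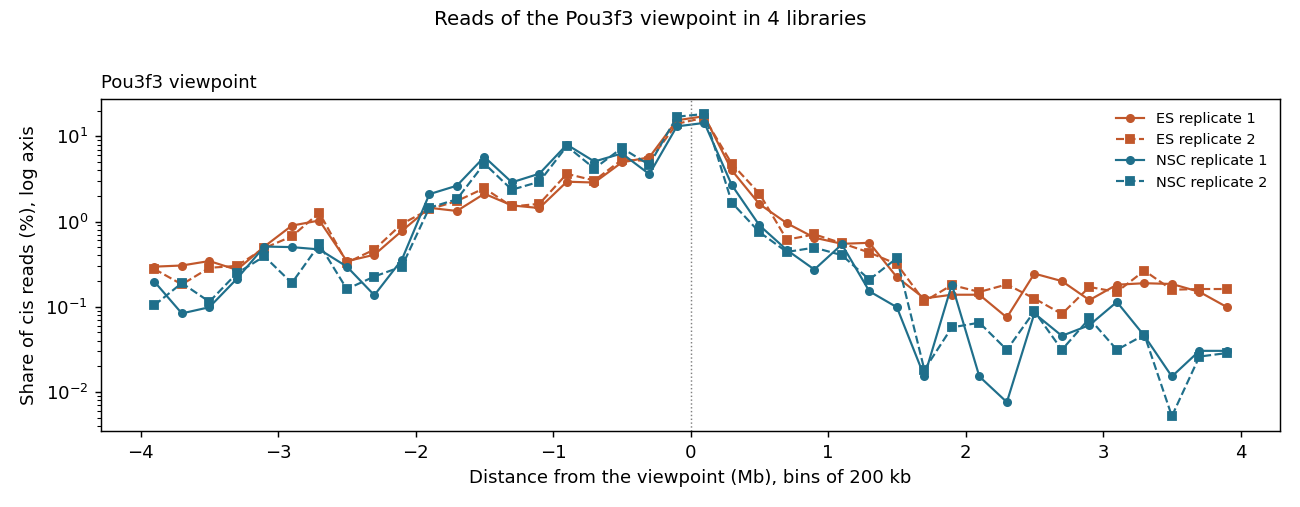
Share of cis reads (percent, log axis) of the Pou3f3 viewpoint in bins of 200 kb from 4 Mb upstream to 4 Mb downstream, with 1 line for each of the 2 ES and 2 NSC libraries. In the 8 bins from 0.4 to 2 Mb upstream both NSC libraries lie above both ES libraries, and downstream they lie below in 17 of 20 bins and above in 0. The groups overlap in 3 of 20 bins on either side.

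The profile of 200 kb bins placed the turn about 2 Mb upstream. The NSC shares all exceeded the ES shares in each of the 8 bins from 0.4 to 2 Mb upstream. In the bin from 1.8 to 2 Mb the shares were 1.45% and 1.39% in ES and 2.10% and 1.45% in NSC, where NSC replicate 2 and ES replicate 1 nearly met. In the next bin outward, from 2 to 2.2 Mb, they were 0.776% and 0.938% in ES and 0.357% and 0.297% in NSC. Of the 10 bins from 2 to 4 Mb upstream, NSC was below in 8 and overlapped in the other 2. In the bins from 1.8 to 2 Mb and from 2 to 2.2 Mb, neurons held 1.90% and 0.588% and N2a 1.44% and 0.149%, as means of 2 libraries. The genes at the turn are Slc9a2 and Slc9a4, which encode sodium/proton exchangers. These counts of bins describe the shares and were not tested. At this viewpoint the groups overlapped in only 3 of 20 bins on either side, so bins without overlap were the usual case.

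Of the 10 kb windows, 5 of 186 passed at Pou3f3 (2.69%), all upstream and all higher in NSC. The window 435 to 445 kb upstream (chr1:42252535-42262534, overlapping Gm28175) held 0.262% and 0.378% in ES and 1.5% and 1.26% in NSC (log2 difference 2.11, SE 0.39, adjusted p = 0.00731, edgeR). The others overlap the lncRNA gene Gm29260 and lie at 795 to 815 kb and 875 to 895 kb upstream. At 805 to 815 kb the shares were 0.213% and 0.168% against 1.15% and 0.827%, and at 875 to 885 kb 0.127% and 0.268% against 1.2% and 0.887%. Over these 4 windows the log2 differences ran from 1.78 to 2.41, with adjusted p from 0.00731 to 0.0191 by edgeR. The neighbourhood of Gm29260 (gene at chr1:41743022-41939598) held 4.19% and 4.81% in ES and 12.0% and 9.78% in NSC, a log2 difference of 1.27 (SE 0.17, adjusted p = 4.35e-10, edgeR). It did not pass with TMM factors (0.0567), with all listed reads as library size (0.216) or with only the NSC and ES libraries fitted (0.0599). In neurons it held 13.9% and 10.8%, and in N2a 9.02% and 9.42%.

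Beyond 1 Mb, 3 of 3078 windows of 200 kb passed over all viewpoints, which is 0.0975%. At Pou3f3, 2 of them passed. The first was the window 1.4 to 1.6 Mb upstream (chr1:41097535-41297534, holding the lncRNA gene 4930448I06Rik), with 2.12% and 2.46% in ES and 5.74% and 4.79% in NSC (log2 difference 1.2, SE 0.18, adjusted p = 9.22e-06, edgeR). The second, 1 to 1.2 Mb upstream (chr1:41497535-41697534, with Gm39631 and Gm35935) held 1.44% and 1.61% against 3.64% and 2.93% (log2 difference 1.11, SE 0.23, adjusted p = 0.00771, edgeR). The first lost its call when the fit held only the NSC and ES libraries (0.121), and the second there too (0.466) and when ES replicate 1 (0.973), ES replicate 2 (0.332) or NSC replicate 1 (0.411) was left out. The neighbourhood of 4930448I06Rik held 1.39% in each ES library and 4.15% and 2.81% in NSC (log2 difference 1.33, SE 0.26, adjusted p = 0.000367, edgeR), and lost its call without the same 3 libraries (0.282, 0.417 and 0.474), with all listed reads as library size (0.826) and with only the NSC and ES libraries fitted (0.476).

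Of the 18 Pou3f3 neighbours tested, 0 passed by edgeR and 0 by DESeq2, 7 had an unadjusted p under 0.05, against 5.71% of all genes tested at this viewpoint, and all 7 were lower in NSC. The median over the 18 was -0.73, with 14 below 0, against a median of -0.38 and 57.1% below 0 over all 1330 genes tested. On the downstream side, Mrps9, which encodes a protein of the mitochondrial ribosome, had 3.97% and 4.34% in ES and 2.60% and 2.65% in NSC. Gpr45, an orphan receptor gene, had 3.50% and 4.11% against 2.32% and 1.48%, a log2 difference of -1.01 (SE 0.28, adjusted p = 0.172, edgeR). Fhl2, which encodes a LIM-domain protein, had 1.92% and 2.45% against 1.18% and 0.804% (log2 difference -1.15, SE 0.35, adjusted p = 0.314, edgeR). On the upstream side, Map4k4, a kinase gene 2.73 Mb away, had 1.61% and 1.47% against 0.638% and 0.549% (log2 difference -1.37, SE 0.45, adjusted p = 0.427, edgeR). Slc9a4 and Slc9a2 had 0.611% and 0.743% against 0.311% and 0.250%, and 1.15% and 1.08% against 0.577% and 0.616%. The neighbourhood of Slc9a2 was thus lower in NSC, although the class 1 to 2 Mb upstream that the gene overlaps was higher.

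At the Pax6 locus the differences were smaller, and all 3 classes that passed were those of the P1 promoter, 2 higher (7.69% of its 26) and 1 lower (3.85%). The class 200 to 500 kb downstream of P1 (chr2:105875114-106175113) overlaps Elp4, Immp1l, Dnajc24 and Dcdc5. The middles of Elp4 (126 kb from P1) and Dcdc5 (570 kb) lie outside it. This class took 6.52% and 6.07% of reads in ES and 9.62% and 11.5% in NSC. The log2 difference was 0.75 (SE 0.20, adjusted p = 0.00916, edgeR). Introns of Elp4, a gene of the Elongator complex, are known to hold enhancers of Pax6, and whether any of them lies in this class was not tested. The same class had 7.43% and 6.97% against 8.82% and 11.4% from Paupar, and 6.51% and 7.46% against 8.89% and 12.5% from P0. The log2 differences there were 0.49 (SE 0.19, adjusted p = 0.0714, edgeR) and 0.62 (SE 0.23, adjusted p = 0.0701, edgeR), which did not pass. From P1 the neuron libraries held 9.73% and 12.4% and the N2a libraries 7.93% and 9.66%.

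The class 5 to 10 kb downstream of P1, inside Pax6, rose from 3.60% and 4.2% in ES to 7.97% and 5.22% in NSC (log2 difference 0.76, SE 0.22, adjusted p = 0.0148, edgeR). Both NSC libraries were above both ES libraries, but they differed from each other by more than the ES libraries did. The class 500 kb to 1 Mb upstream of P1 (chr2:104675115-105175114), which holds Wt1 and 7 other protein-coding genes, fell from 3.57% and 4.43% to 2.43% and 2.20% (log2 difference -0.79, SE 0.26, adjusted p = 0.0362, edgeR). The smallest p at Paupar was that of the class 10 to 20 Mb upstream, with 3.34% and 3.37% in ES and 2.12% and 2.3% in NSC (log2 difference -0.60, SE 0.21, adjusted p = 0.0535, edgeR). At P0 it was that of the class 20 to 50 kb upstream, with 3.17% and 3.75% against 4.46% and 6.07% (log2 difference 0.61, SE 0.21, adjusted p = 0.0535, edgeR).

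Each of the 3 P1 calls was lost when a library was left out: that at 200 to 500 kb downstream in the absence of ES replicate 1 (adjusted p = 0.0875) or 2 (0.152) or of NSC replicate 2 (0.136), that at 5 to 10 kb in the absence of ES replicate 1 (0.291) or 2 (0.0806) or of NSC replicate 1 (0.229), and that at 500 kb to 1 Mb upstream when any of the 4 was left out (0.0550 for ES replicate 1, 0.311 for ES replicate 2, 0.103 for NSC replicate 1 and 0.169 for NSC replicate 2). With all listed reads as library size none of the 3 passed (0.277, 0.129 and 0.296). The 3 viewpoints lie close together and come from the same libraries, so their profiles are not independent.

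**Figure D4:**
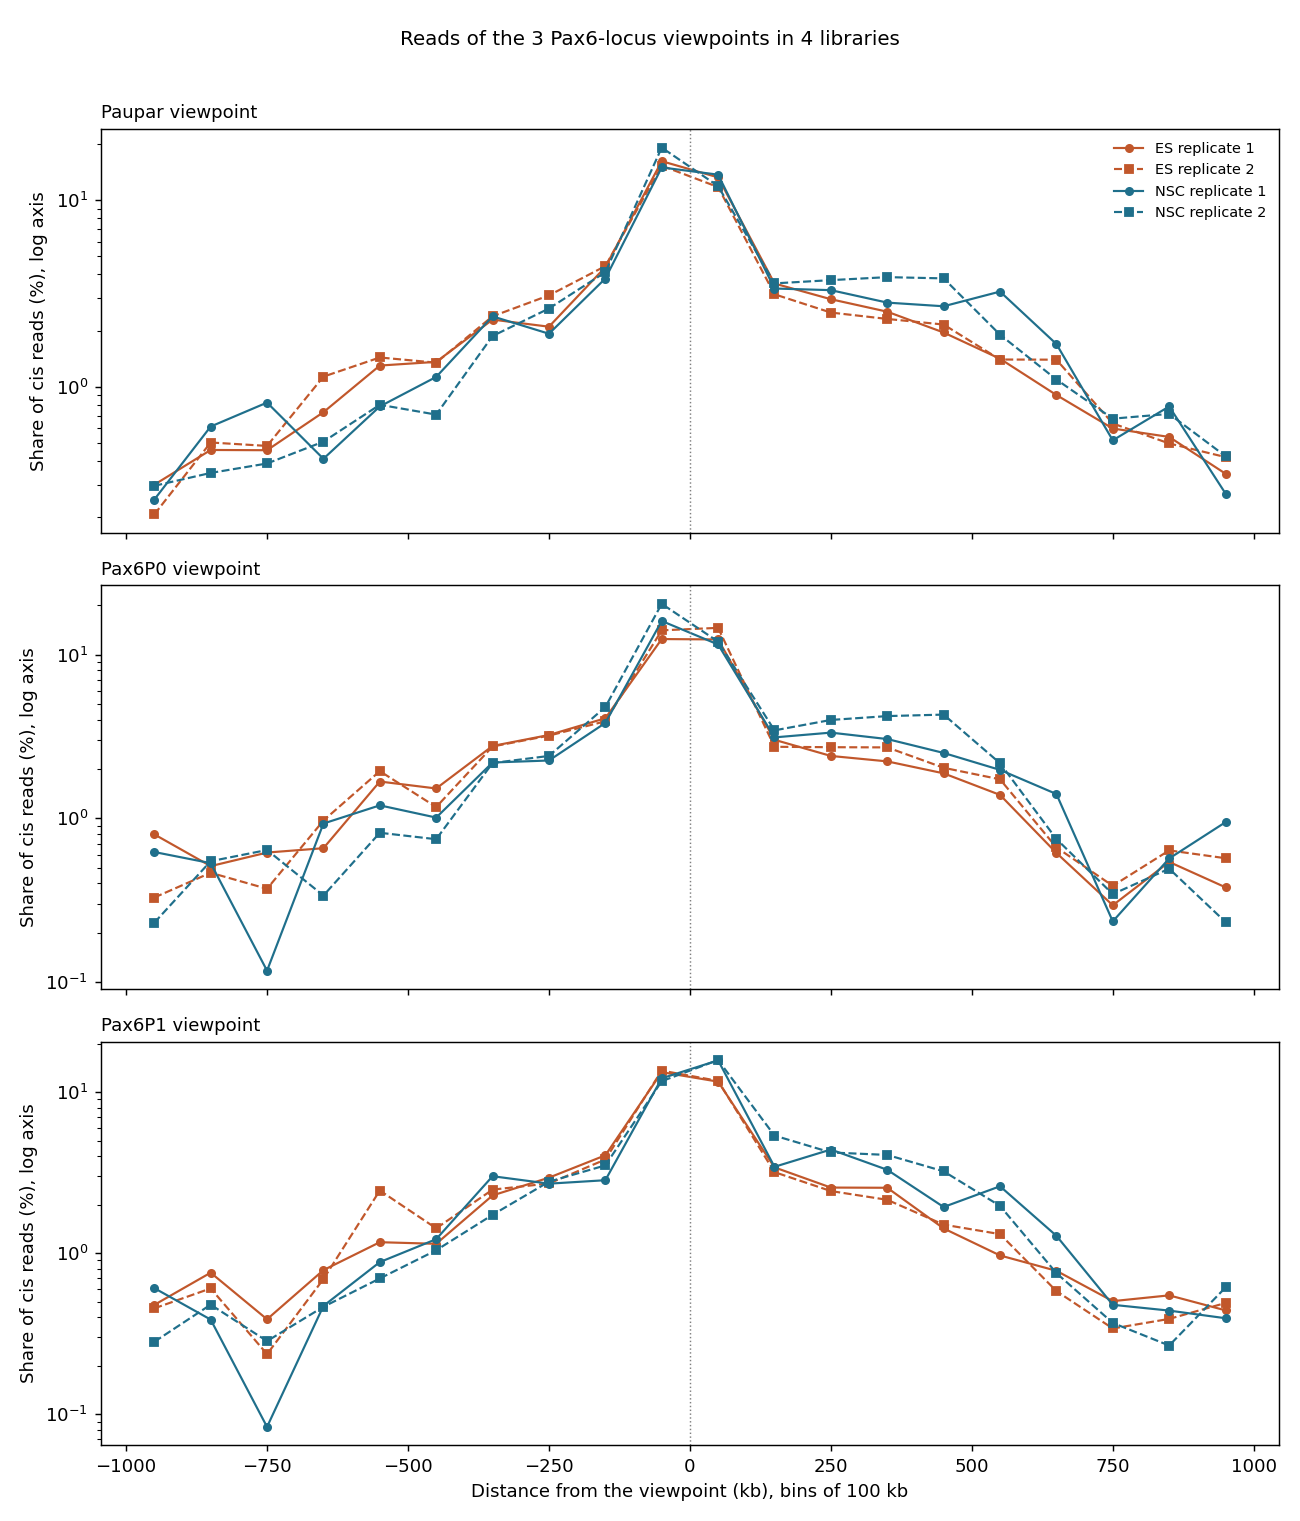
Share of cis reads (percent, log axis) of the Paupar, Pax6P0 and Pax6P1 viewpoints in bins of 100 kb from 1 Mb upstream to 1 Mb downstream, with 1 line for each of the 2 ES and 2 NSC libraries. At all 3 viewpoints both NSC libraries lie above both ES libraries in each of the 4 bins from 200 to 600 kb downstream and below them from 500 to 600 kb upstream. The groups overlap in 6, 4 and 5 of 10 upstream bins and in 5, 3 and 4 of 10 downstream bins, in the order of the viewpoints.

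In 100 kb bins, the NSC shares all exceeded the ES shares in each of the 4 bins from 200 to 600 kb downstream, from all 3 viewpoints. Bins without overlap were common, and these counts were not tested. The groups overlapped in 6, 4 and 5 of the 10 upstream bins from Paupar, P0 and P1. Downstream they overlapped in 5, 3 and 4 of 10. From P1 the bin from 200 to 300 kb held 2.55% and 2.43% in ES and 4.40% and 4.22% in NSC. The bin from 500 to 600 kb upstream was lower in NSC from all 3, with 1.17% and 2.45% in ES and 0.879% and 0.696% in NSC from P1. That bin lies at Wt1, which encodes a zinc-finger factor of kidney and gonad development.

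No gene of the Pax6 neighbour list passed the test by edgeR; 19 of its 20 genes were found on the chromosome and tested. At an unadjusted p under 0.05 there were 3, 6 and 6 genes from Paupar, P0 and P1 (1, 3 and 4 higher and 2, 3 and 2 lower in NSC), against 3.74%, 5.60% and 5.71% of all genes tested. DESeq2 called 1, 0 and 3 of the list, with Dcdc5 from Paupar and Immp1l, Dnajc24 and Dcdc5 from P1. From P1, Dnajc24, which encodes a co-chaperone, had 2.89% and 2.99% in ES and 5.42% and 5.37% in NSC (log2 difference 0.87, SE 0.22, adjusted p = 0.0590, edgeR), the nearest to passing. Immp1l, a gene of a mitochondrial peptidase, had 3.89% and 3.78% against 6.53% and 6.59% (log2 difference 0.77, SE 0.21, adjusted p = 0.0918, edgeR). Elp4 had 23.8% in each ES library and 29.9% in each NSC library, but its neighbourhood with the flank spans the viewpoint and takes in reads close to it. The bin from 0 to 100 kb downstream of P1 alone held 11.6% and 11.7% in ES and 15.7% and 15.8% in NSC. Wt1 had 1.84% and 3.14% against 1.2% and 0.914% from P1 (log2 difference -1.24, SE 0.37, adjusted p = 0.266, edgeR). From Paupar and P0 its log2 differences were -0.83 and -0.88, neither of which passed.

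A single distant window passed at P0. It lies 43 to 43.2 Mb upstream (chr2:62468439-62668438) and holds Gcg, which encodes glucagon, Fap, Ifih1 and Gca. It had 14 and 0 reads in ES and 95 and 40 in NSC (adjusted p = 0.0493, edgeR). The call was lost without NSC replicate 1 (adjusted p = 1), without ES replicate 2 (1) and when each library's highest fragment was left out (0.617).

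The balance between the 2 sides was compared as the upstream share of the reads within 1 Mb. At Sox2 it was 29.3% and 28.9% in ES and 40.7% and 38.8% in NSC, and at Pou3f3 56.6% and 55.8% against 65.8% and 65.3%. At P1 it went the other way, from 52.4% and 54.1% to 41.7% and 38.5%. Paupar had 51.3% and 53.6% against 45.6% and 49.3%, and at P0 the groups overlapped, at 53.0% and 50.4% against 50.05% and 50.91%. An exact permutation of 2 libraries against 2 cannot give a two-sided p below 0.333, so these shares were not tested. The neuron means were 43.5% at Sox2, 66.6% at Pou3f3 and 41.6% at P1, each nearer to the NSC mean (39.7%, 65.6% and 40.1%) than to the ES mean (29.1%, 56.2% and 53.3%). At Paupar the neuron mean of 51.2% was nearer to that of ES (52.5%) than to that of NSC (47.4%), and at P0 neurons had 48.9% beside 51.7% in ES and 50.5% in NSC.

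**Figure D5:**
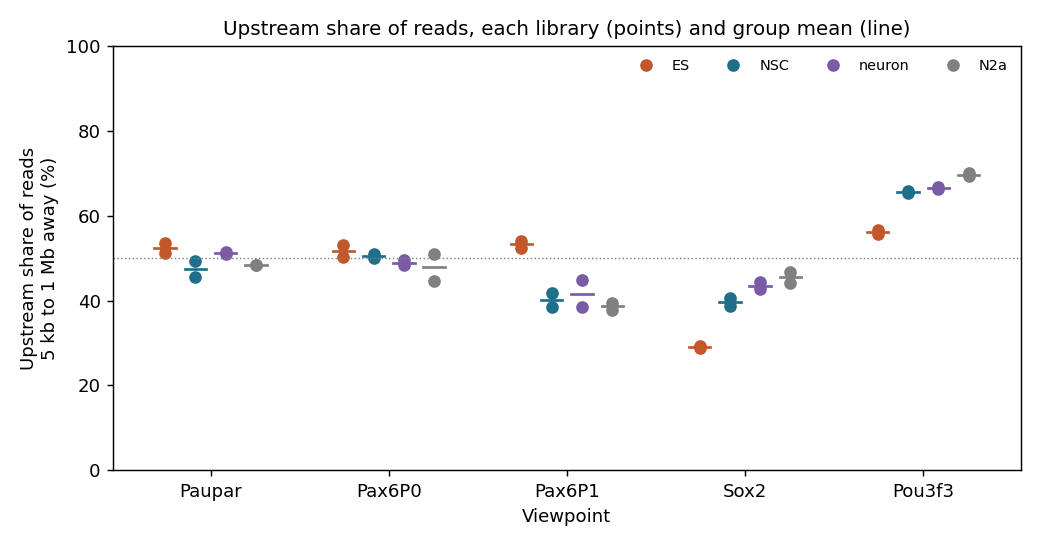
Upstream share (percent, axis from 0 to 100) of the reads between 5 kb and 1 Mb from each viewpoint, with 1 point per library and a line at the mean of each group of 2. NSC lies above ES at Sox2 and Pou3f3 and below it at Pax6P1, and the groups overlap at Pax6P0.

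The share of reads within 1 Mb of the viewpoint, both sides together, was also compared. It was higher in both NSC libraries than in both ES libraries at Paupar, P1 and Sox2, by 3.92, 6.66 and 5.37 percentage points between means. At P0 the means differed by 5.54 points and the groups overlapped (53.4% and 57.9% in ES, 57.4% and 65.0% in NSC), as they did at Pou3f3 (56.3% and 55.9% against 54.7% and 62.4%).

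Whether the loci differed in how their classes changed was tested in 1 model over classes, with the NSC minus ES difference at Sox2 and at Pou3f3 each set against the mean of the 3 Pax6-locus viewpoints, and Sox2 set against Pou3f3. Of 23 classes each, 9 (39.1%), 8 (34.8%) and 7 (30.4%) passed. Viewpoints of 1 library are not independent, which the model does not take into account. The class 100 to 200 kb downstream differed most between Sox2 and the Pax6 locus, with a log2 difference of -1.55 (SE 0.24, adjusted p = 1.28e-06, edgeR), followed by 200 to 500 kb upstream, by 1.49 (SE 0.24, adjusted p = 2.77e-06, edgeR). Between Pou3f3 and the Pax6 locus it was 2 to 5 Mb downstream, by -1.68 (SE 0.29, adjusted p = 7.25e-06, edgeR), and 200 to 500 kb downstream, by -1.61 (SE 0.28, adjusted p = 1.03e-05, edgeR). Sox2 and Pou3f3 differed at 500 kb to 1 Mb downstream by 1.67 (SE 0.34, adjusted p = 0.000119, edgeR), where Sox2 rose and Pou3f3 fell. They also differed at 2 to 5 Mb downstream, by 1.39 (SE 0.35, adjusted p = 0.00141, edgeR), and at 200 to 500 kb upstream, by 1.12 (SE 0.29, adjusted p = 0.00201, edgeR). At 1 to 2 Mb upstream the difference was -1.51 (SE 0.45, adjusted p = 0.00721, edgeR).

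A list of genes for developmental regulators on the same chromosomes was also described. It held Wt1, 511 to 525 kb from the Pax6-locus viewpoints, and more distant genes. Among these were the Hoxd genes, Dlx1 and Dlx2, Pax8, Tbr1 and Nkx2-2 on chromosome 2, Shox2 on chromosome 3, and Tfap2b, Pax3 and En1 on chromosome 1. None of the list passed by edgeR, of 20, 21, 20, 7 and 13 tested from Paupar, P0, P1, Sox2 and Pou3f3. DESeq2 called none either, but gave an adjusted p for only 10, 9, 12, 3 and 8 of them. By edgeR, 1, 1, 2, 1 and 1 had an unadjusted p under 0.05, each lower in NSC. Over all genes tested, 3.74%, 5.60%, 5.71%, 7.49% and 5.71% had such a p, so these counts are near the background. Besides Wt1 at all 3 Pax6-locus viewpoints these were Nkx2-2 at P1, Shox2 at Sox2 and Tfap2b at Pou3f3. The median log2 difference over the members tested was -0.74 (20 genes), -1.51 (21), -0.86 (20), -1.09 (7) and -0.94 (13), against -0.32, -0.31, -0.28, -0.56 and -0.38 over all genes tested at these viewpoints. Adjacent members, such as the Hoxd genes or Dlx1 and Dlx2, share reads, so the medians take in some stretches more than once. Tfap2b, a gene of neural crest and kidney development, had 0.249% and 0.201% in ES and 0.0304% and 0.0182% in NSC from Pou3f3, 23.5 Mb away.

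Counting each fragment once and taking only reads beyond 1 Mb, so that Wt1 was left out, the neighbourhoods of these genes held a smaller share in both NSC libraries than in both ES libraries at each viewpoint. Groups that do not overlap are common in these data, at 69.5% of the distance classes. From P0 the share was 2.98% and 2.91% of reads beyond 1 Mb in ES and 1.67% and 1.99% in NSC, from P1 3.53% and 3.29% against 2.13% and 2.75%, and from Paupar 1.87% and 1.93% against 1.54% and 1.24%. From Pou3f3 it was 2.72% and 2.09% against 1.74% and 1.26%. From Sox2 it was 1.40% and 1.80% against 1.32% and 0.977%, where NSC replicate 1 had 37 reads and came close to ES replicate 1. The ratio of ES to NSC means was between 1.37 and 1.60. Neurons overlapped the range of ES at Paupar (2.29% and 1.45%) and Sox2 (0.952% and 2.01%). The list was chosen with earlier results known and its sum was not tested.

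The authors' q values, given per fragment within each file, were used as a description. From Sox2, 18 and 15 fragments of the class 100 to 200 kb downstream had a q under 0.05 in the ES libraries, and 0 and 0 in the NSC libraries, which listed 134 and 214 fragments there. From Pou3f3 the class 500 kb to 1 Mb upstream had 0 and 0 in ES and 5 and 0 in NSC. Over whole files, 27 to 68 fragments passed in ES and 15 to 44 in NSC. At Sox2, 25 fragments passed in both ES libraries and 9 in both NSC libraries, and 4 were common to these sets (16.0% and 44.4% of them). At Pou3f3 the sets held 37 and 24, with 21 in common (56.8% and 87.5%). Such counts can move with depth, and NSC replicate 1 was shallower and NSC replicate 2 deeper than ES replicate 2, with 57523, 212449 and 151133 cis reads over the 5 files.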

How the data were processed

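Contacts were measured in 8 libraries of mouse genomic DNA, with 1 file per library and viewpoint. The submitters' processing notes name Trim Galore, Bowtie and the mm10 build. Not given in the sources used here are their versions, the enzyme, how reads were assigned to fragments, duplicate removal and the caller. The deposited read column holds counts, whole reads per restriction fragment. The deposited RPMs column is a signal that is a power of the read count in each file, and it was not used. The authors' z column is a score per fragment and was not used. Of the authors' p-values and q-values, only the q-values were used, as a description.

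Viewpoints were taken as the stretch without listed fragments at the named gene. Counts were summed by fragment midpoint, leaving out 5 kb on either side, in distance classes, in 10 kb windows to 1 Mb, in 200 kb windows beyond, and in gene bodies with 50 kb flanks from RefSeq on GRCm38.p6. Library size was the count on the viewpoint's chromosome beyond 5 kb. Each table held all 5 viewpoints and was fitted once to all 8 libraries with edgeR 4.0.16 (robust quasi-likelihood, 1 coefficient per cell type, no block), after filterByExpr with a minimum count of 10, and adjusted by Benjamini and Hochberg over the table at 0.05. The fits were also run on simulated counts, drawn independently for each row and library. These held no reads shared between rows and no correlation between viewpoints, so they cannot show how the fits behave under either. DESeq2 1.42.0, other scalings, leaving out each library and further alternatives were run. Classes were named if they passed or had the smallest p of their viewpoint, and windows and genes if they passed, with the listed genes whatever their value. The members and lists were chosen with earlier results of these data known. Adjacent fragments often hold equal counts, and listed reads were 1.90 to 3.30 times the fewest reads that could give them as runs in the ES and NSC files, so a read may have been counted in several fragments.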

Additional observations from a re-analysis of the deposited data

How the results depend on the processing

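Among the 15 called distance classes and the classes of smallest p at Paupar and Pax6 P0, and the named windows and genes, no alternative turned a direction. The share within 1 Mb at Pou3f3, 2.48 percentage points higher in NSC, was -1.34 with all listed reads as library size and -1.37 to 6.33 when a library was left out, with the negative value without NSC replicate 2. The 15 classes became 8 with all listed reads as library size, 23 with DESeq2's test and 34 when only NSC and ES libraries were fitted, and 7 to 24 when a library was left out. The 10 near windows became 4, 36 and 14 under the same 3 alternatives, 1 with the fewest reads per run, 17 with 20 kb windows, and 0 to 21 without a library. The 3 far windows became 1 with all listed reads, 0 with only NSC and ES libraries (135 at an unadjusted p under 0.05), 1 with 500 kb windows, and 1 to 7 without a library. The 6 gene neighbourhoods became 0 with TMM factors (411 at an unadjusted p under 0.05), 1 with all listed reads, 11 with DESeq2 size factors, 28 with DESeq2's test, 1 with only NSC and ES libraries, 14 with 10 kb left out, 18 with viewpoints fitted apart, 15 with a 20 kb flank, and 3 to 26 without a library. The 24 differences between viewpoints became 11 to 25 without a library and kept within 1.5 times under the other alternatives. Leaving out a library changes the number of windows and genes tested as well as the number of samples. Otherwise the cause was not tested.

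Deviations of same-numbered NSC and ES libraries from their group means correlated at 0.0485 over classes and -0.0603 over near windows. The cis share of listed reads did follow the replicate number. It was lower in replicate 1 than in replicate 2 in every cell type at every viewpoint, at Paupar with 62.2% and 68.0% in ES and 56.0% and 70.8% in NSC. Whether the numbers pair the samples is not stated in the labels and was not tested further. With the replicate block the counts were 24 classes, 21 near windows, 3 far windows, 14 gene neighbourhoods and 26 differences between viewpoints.

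The median count in a far window ran from 8 to 12 reads, depending on the viewpoint. Without NSC replicate 1, the shallowest library, 20 classes but 0 near windows passed (79 at an unadjusted p under 0.05).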
